A study of Homo sapiens with 12 samples.

Results

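The transcripts of HDAC1, HDAC2, HDAC3, HDAC9, SIRT1 and SIRT7, 6 genes that encode protein deacetylases, were followed in neuroblastoma cells treated with JQ1, panobinostat or both compounds. They were found by gene symbol in the probe annotation, which assigned them 7 transcript clusters (a cluster is the set of probes that the array design places on 1 transcribed locus) of 53617 on the array, and they are 6 of 14884 named genes. HDAC2 had 2 clusters (17022854, the brighter, and 17011843) and the other genes 1 each: 16662077 for HDAC1, 17000900 for HDAC3, 17043882 for HDAC9, 16705313 for SIRT1 and 16850009 for SIRT7. The annotation names 18 HDAC and sirtuin genes in all, so 12 relatives could be set beside these 6. The cells were SK-N-BE(2), an established human neuroblastoma line with amplified MYCN, grown in serum-containing medium. All groups were treated for 6 h, with vehicle alone, with 1 µM JQ1, with 10 nM panobinostat, or with 1 µM JQ1 plus 10 nM panobinostat, and each group had 3 arrays. The whole study rests on this 1 cell line, and the labels do not say whether replicates were separate cultures, so the p-values reflect the scatter of these arrays alone, and that scatter may be purely technical.

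Lysine deacetylases remove acetyl groups from histones and other proteins. HDAC1, HDAC2 and HDAC3 are class I enzymes of the nucleus: HDAC1 and HDAC2 work in the SIN3, NuRD and CoREST complexes, and HDAC3 works in nuclear receptor corepressor complexes. HDAC9 is a class IIa enzyme, which binds MEF2 transcription factors and moves between nucleus and cytoplasm. These enzymes need zinc, and panobinostat, a hydroxamate, inhibits zinc-dependent deacetylases. Sirtuins use NAD instead: SIRT1 is a nuclear enzyme with histones and p53 among its substrates, and SIRT7 is enriched in the nucleolus. JQ1 displaces BET proteins, which read acetylated lysines, from chromatin. The design sets each compound, and the pair of them, against vehicle.

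Array intensities are deposited as 1 value per cluster and array and are taken as log2, which the labels do not state, so every fold change rests on that reading. Array medians lay between 6.12 and 6.29, and 2 arrays correlated at 0.991 to 0.995 if they shared a treatment and at 0.962 to 0.989 if they did not. All 9 measured markers of sympathetic neuroblasts (of 12 listed) lay above the median gene in vehicle arrays. All 9 fell with the combination: their summed log2 level was 98.0 to 98.2 in vehicle, 97.2 to 97.5 with JQ1, 94.1 to 94.4 with panobinostat and 92.1 in every combination array. Markers of other lineages were not all dim. In vehicle arrays 1 of 2 glial, 1 of 2 mesenchymal, 2 of 3 epithelial and 0 of 1 blood markers lay above the median gene. The brighter mesenchymal marker lay above 99.2% of genes. Of 8 measured markers of glial, mesenchymal, epithelial and blood cells, DCN and LUM, both mesenchymal, were lower with the combination and the others were not called. The part of these shifts in the results below was not tested. Fewer cells and less RNA per cell cannot be told apart in such bulk samples. A change is the difference of 2 group means on the log2 scale, each of 3 arrays, with its SE from limma. Adjusted p-values come from limma with the Benjamini-Hochberg correction over the 14884 genes, and those under 0.05 were taken as calls. Each cluster has its own probes, so differences in level between genes were not tested. Ranks of levels among genes are a rough guide only.

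The largest changes from vehicle among the 6 genes were a fall of HDAC9 and a rise of SIRT7, both with the combination, and SIRT1 was the gene whose direction differed between the compounds. With JQ1, 3 of the 6 genes were called (SIRT1 and SIRT7 higher, HDAC9 lower), where 17.6% of all genes were called (8.18% higher and 9.47% lower). With panobinostat, 5 of 6 were called (HDAC1, HDAC3 and SIRT7 higher, HDAC9 and SIRT1 lower), where 29.3% of all genes were (14.5% higher and 14.8% lower). That background split of 2161 higher and 2202 lower genes turned to 1441 and 2310 after median centring of the arrays. After quantile normalization it was 2415 and 2272. With the combination all 6 were called (HDAC1, HDAC3, SIRT1 and SIRT7 higher, HDAC2 and HDAC9 lower), where 37.7% of all genes were (18.2% higher and 19.5% lower). The background split there was 2713 higher and 2901 lower genes. It was 2184 and 2920 after centring and 2885 and 3002 after quantile normalization. The median change of the 6 genes was 0.16 with JQ1, 0.08 with panobinostat and 0.45 with the combination, against 0.01, 0.03 and 0.02 over all genes. These comparisons share the vehicle arrays. The 6 genes were chosen with earlier results of these data known. Their mean levels lay above those of 63.0% (HDAC2) to 94.3% (SIRT1) of genes, whereas the shares of all genes include dim ones. The counts are therefore no test of enrichment. With the combination, 5 or 6 of the 6 genes were called over the other settings.

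**Figure D1:**
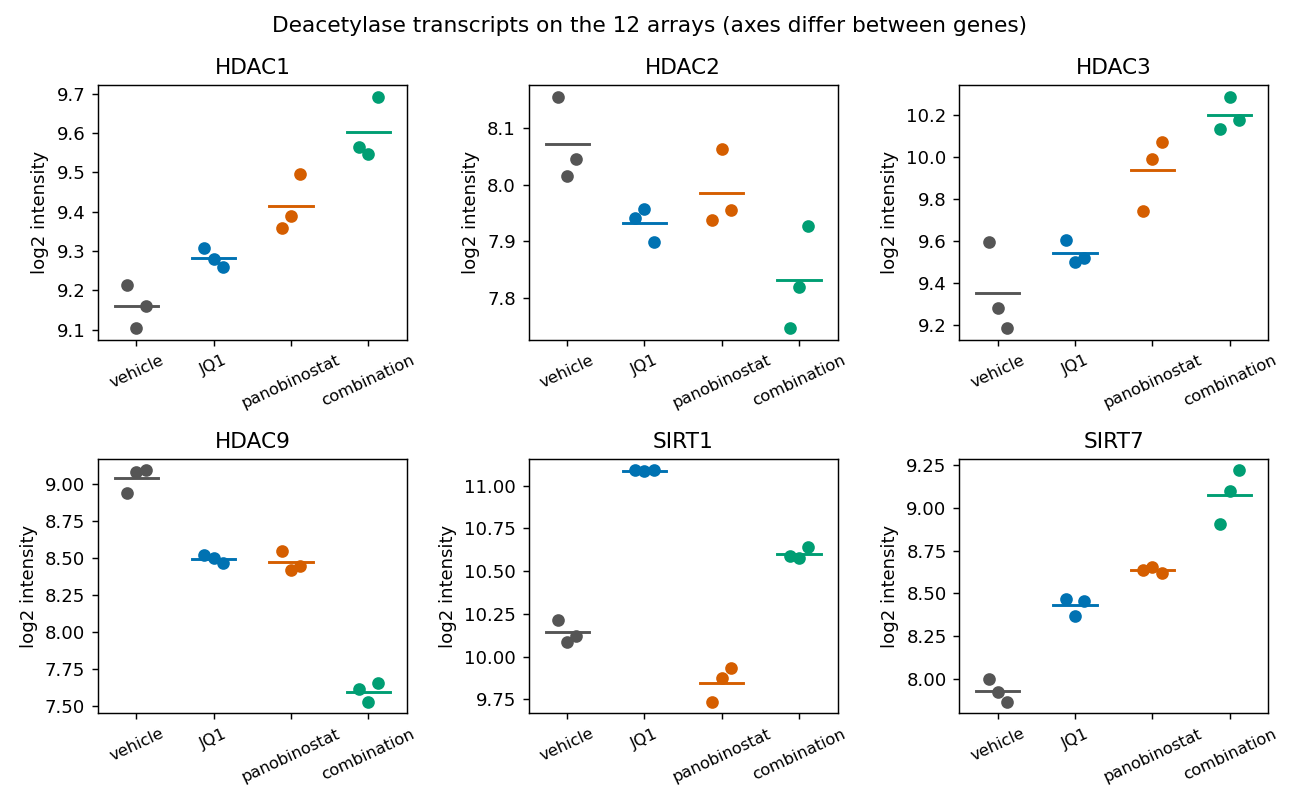
Each panel shows 1 gene and each point 1 array, with the log2 intensity on the vertical axis and the 4 treatment groups on the horizontal axis; lines mark group means of 3 arrays. HDAC9 falls from a mean of 9.04 in vehicle to 7.59 with the combination, SIRT7 runs from 7.93 to 9.07, and SIRT1 is at 11.09 with JQ1 but 9.85 with panobinostat.

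HDAC1, the catalytic subunit of several corepressor complexes, had log2 intensities of 9.21, 9.10 and 9.16 in the vehicle arrays. They were 9.31, 9.28 and 9.26 with JQ1 and 9.36, 9.39 and 9.50 with panobinostat. With the combination they were 9.57, 9.55 and 9.69. The groups stood in the order vehicle, JQ1, panobinostat, combination, and no array overlapped between neighbouring groups. HDAC1 rose 1.36-fold with the combination (0.44 ± 0.07, adjusted p = 0.000232) and 1.19-fold with panobinostat (0.26 ± 0.07, adjusted p = 0.0132). The panobinostat call ended without vehicle replicate 2 (0.227), without panobinostat replicate 3 (0.215) and after median centring of the arrays (0.202). It also ended when only the vehicle and panobinostat arrays were fitted (adjusted p = 0.0566) and over all clusters (adjusted p = 0.0504). With JQ1 its change of 0.12 ± 0.07 was not called (adjusted p = 0.259, 95% interval -0.02 to 0.27). Of the neighbours in the order, panobinostat against JQ1 (0.13, 95% interval -0.02 to 0.28, adjusted p = 0.193) and the combination against panobinostat (0.19, 95% interval 0.04 to 0.34, adjusted p = 0.0881) were not called.

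HDAC3, the deacetylase of nuclear receptor corepressor complexes, showed the largest change of the 3 class I genes. Vehicle arrays held 9.60, 9.28 and 9.19, and JQ1 arrays held 9.61, 9.50 and 9.52. Panobinostat arrays held 9.75, 9.99 and 10.07, and combination arrays held 10.14, 10.29 and 10.18. Vehicle replicate 1 stood above the other vehicle arrays and within the range of the JQ1 arrays, whereas every array with panobinostat lay above every array without it. HDAC3 rose 1.50-fold with panobinostat (0.58 ± 0.11, adjusted p = 0.00212) and 1.80-fold with the combination (0.85 ± 0.11, adjusted p = 8.2e-05). With JQ1 its change was 0.19 ± 0.11 and was not called (adjusted p = 0.315, 95% interval -0.06 to 0.43). Panobinostat added to JQ1 raised it by 0.66 ± 0.11 (adjusted p = 0.00114), while JQ1 added to panobinostat gave 0.26 ± 0.11, which was not called (adjusted p = 0.149).

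The 250 bases before the HDAC3 start are shown because HDAC3 and HDAC1 rose together with panobinostat and with the combination. The sequence comes from RefSeq's table for GRCh38.p14 (chr5:141636850-141637099, minus strand), 5′ to 3′, with matches in capitals. The motifs searched on both strands were the GC box GGGCGG, the E-box CACGTG (the site of MYC-MAX dimers), CCAAT and TATAAA.
HDAC3: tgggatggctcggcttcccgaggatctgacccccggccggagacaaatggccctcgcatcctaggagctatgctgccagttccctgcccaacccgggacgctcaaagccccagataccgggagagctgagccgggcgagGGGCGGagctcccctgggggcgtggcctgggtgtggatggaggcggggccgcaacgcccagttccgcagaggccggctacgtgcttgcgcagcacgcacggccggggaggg
This window held 1 GC box and none of the other motifs. The HDAC1 window held 3 GC boxes, of which 2 share a base, and 1 CCAAT box, and the HDAC2 window held none of the 4 motifs. A GC box was present in 42.6% and CCAAT in 32.0% of the 35114 promoter windows of this length. At least 2 GC boxes were present in 24.3%. The HDAC3 window was 70.8% and the HDAC1 window 71.6% G and C, against a median of 58% over all windows. A match describes letters only.

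HDAC2, the close paralog of HDAC1, was lower, not higher, with the combination. Its brighter cluster had 8.16, 8.02 and 8.04 in vehicle arrays and 7.94, 7.96 and 7.90 with JQ1. It had 7.94, 8.06 and 7.96 with panobinostat and 7.75, 7.82 and 7.93 with the combination. The combination arrays lay below all vehicle arrays but overlapped the JQ1 arrays, and the panobinostat arrays overlapped vehicle. HDAC2 fell by 0.24 ± 0.07 with the combination (1.18-fold lower, adjusted p = 0.0175). The call ended without vehicle replicate 1 (-0.20), combination replicate 1 (-0.199) or combination replicate 2 (-0.236). It also ended when only the vehicle and combination arrays were fitted (-0.241, adjusted p = 0.0626), with the mean of its 2 clusters (-0.313, adjusted p = 0.0646) and when all 53617 clusters were tested (adjusted p = 0.0586). JQ1 gave -0.14 ± 0.07 (adjusted p = 0.22) and panobinostat -0.09 ± 0.07 (adjusted p = 0.413), neither called. The second HDAC2 cluster was dim, between 4.70 and 5.65 over the 12 arrays, and its vehicle arrays (5.65, 4.83 and 5.26) spread over most of that range. It was at -0.38 ± 0.21 with the combination (adjusted p = 0.293 over all clusters). The annotation pairs this dim cluster with a coding HDAC2 transcript and the brighter one with a noncoding HDAC2 transcript, and the span of HDAC2 overlaps that of HDAC2-AS2, an antisense gene, in the RefSeq table. Whether the probes separate these transcripts, or HDAC1 from HDAC2, was not tested.

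HDAC9, the class IIa enzyme, changed most. Its vehicle arrays were at 8.94, 9.08 and 9.09, and its JQ1 arrays at 8.52, 8.50 and 8.46. Panobinostat arrays were at 8.55, 8.42 and 8.45, and combination arrays at 7.61, 7.52 and 7.65. Both single treatments lay below all vehicle arrays and overlapped each other, and the combination arrays lay below every other array. HDAC9 fell 1.46-fold with JQ1 (-0.54 ± 0.07, adjusted p = 0.000264) and 1.48-fold with panobinostat (-0.57 ± 0.07, adjusted p = 9.54e-05). With the combination it fell 2.72-fold (-1.44 ± 0.07, adjusted p = 3.9e-08). Panobinostat and JQ1 differed by -0.02 ± 0.07 (adjusted p = 0.852), with a 95% interval of -0.17 to 0.13. The combination was lower than JQ1 (-0.90 ± 0.07, adjusted p = 5.07e-06) and lower than panobinostat (-0.88 ± 0.07, adjusted p = 3.27e-05). With the combination, 1.05% of genes had a lower change.

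The RefSeq table lists 5 start windows for HDAC9. The most upstream is shown because HDAC9 had the largest fall (chr7:18086575-18086824, plus strand, GRCh38.p14, 250 bases before the start, motifs in capitals). Which start the probes of its cluster report is not given in the sources used here.
HDAC9: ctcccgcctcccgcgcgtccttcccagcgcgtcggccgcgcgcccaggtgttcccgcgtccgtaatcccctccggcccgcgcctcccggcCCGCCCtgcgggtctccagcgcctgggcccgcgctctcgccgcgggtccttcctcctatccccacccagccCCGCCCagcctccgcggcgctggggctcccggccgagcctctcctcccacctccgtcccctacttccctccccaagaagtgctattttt
This window was 75.2% G and C and held 2 GC boxes on the minus strand and none of the other motifs. Over all promoter windows the median was 58% G and C, and 24.3% held at least 2 GC boxes. The other 4 HDAC9 windows held no GC box and were 38.4% to 48.0% G and C. Numbered from the most upstream, windows 2, 3 and 5 held 2 CCAAT boxes each, and windows 2 and 3 overlap. The HDAC9 span overlaps 7 other genes in the RefSeq table, HDAC9-AS1 among them, and probes shared with these were not tested.

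SIRT1, an NAD-dependent deacetylase of histones and p53, was the gene that moved in opposite directions. Vehicle arrays were at 10.22, 10.09 and 10.12. JQ1 arrays were at 11.09, 11.08 and 11.09, the narrowest spread of the 4 groups. Panobinostat arrays were at 9.74, 9.87 and 9.93, and combination arrays at 10.59, 10.58 and 10.64. The groups stood in the order panobinostat, vehicle, combination, JQ1, and no arrays overlapped between any 2 groups. SIRT1 rose 1.93-fold with JQ1 (0.95 ± 0.07, adjusted p = 7.31e-06) and fell 1.23-fold with panobinostat (-0.29 ± 0.07, adjusted p = 0.00657). With the combination it was 1.38-fold above vehicle (0.46 ± 0.07, adjusted p = 0.000192). The direct comparison of panobinostat with JQ1 gave -1.24 ± 0.07, a 2.36-fold lower level (adjusted p = 1.4e-06). Adding panobinostat to JQ1 lowered SIRT1 (-0.49 ± 0.07, adjusted p = 0.000326), and adding JQ1 to panobinostat raised it (0.75 ± 0.07, adjusted p = 6.34e-05). All pairs of neighbours in the order thus differed beyond their spread. Its change with JQ1 was higher than that of 99.5% of genes.

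The SIRT1 window is shown because this gene differed most between the compounds (chr10:67884406-67884655, plus strand, GRCh38.p14, 250 bases before the start, motifs in capitals).
SIRT1: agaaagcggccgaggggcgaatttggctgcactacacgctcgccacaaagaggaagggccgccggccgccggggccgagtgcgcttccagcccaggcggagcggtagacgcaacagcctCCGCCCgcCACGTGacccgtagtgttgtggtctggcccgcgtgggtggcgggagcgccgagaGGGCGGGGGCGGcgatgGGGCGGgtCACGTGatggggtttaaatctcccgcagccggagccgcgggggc
It held 4 GC boxes, one pair of them separated by no base, and 2 E-boxes with the letters CACGTG, whose first bases lay 123 and 44 bases before the start. An E-box was present in 6.35% of all windows and at least 2 in 0.535%. None of the HDAC1, HDAC2, HDAC3 and HDAC9 windows held this E-box. Windows were available for 5 of the 6 genes, and SIRT7 had none, so its E-boxes could not be searched. Binding was not measured here.

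SIRT7, the nucleolar sirtuin, rose under every treatment. Its vehicle arrays were at 8.00, 7.92 and 7.86, and its JQ1 arrays at 8.46, 8.37 and 8.45. Panobinostat arrays were at 8.64, 8.65 and 8.62, and combination arrays at 8.90, 9.10 and 9.22. The order was vehicle, JQ1, panobinostat, combination, with no overlap between neighbouring groups. SIRT7 rose 1.42-fold with JQ1 (0.50 ± 0.08, adjusted p = 0.00136), 1.63-fold with panobinostat (0.71 ± 0.08, adjusted p = 6.59e-05) and 2.21-fold with the combination (1.15 ± 0.08, adjusted p = 6.76e-07). The combination exceeded JQ1 by 0.65 ± 0.08 (adjusted p = 0.000159) and panobinostat by 0.44 ± 0.08 (adjusted p = 0.00424). Panobinostat and JQ1 differed by 0.21 ± 0.08, which was not called (adjusted p = 0.0921, 95% interval 0.03 to 0.39); this difference was called without combination replicate 1 (0.207, adjusted p = 0.0451).

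**Figure D2:**
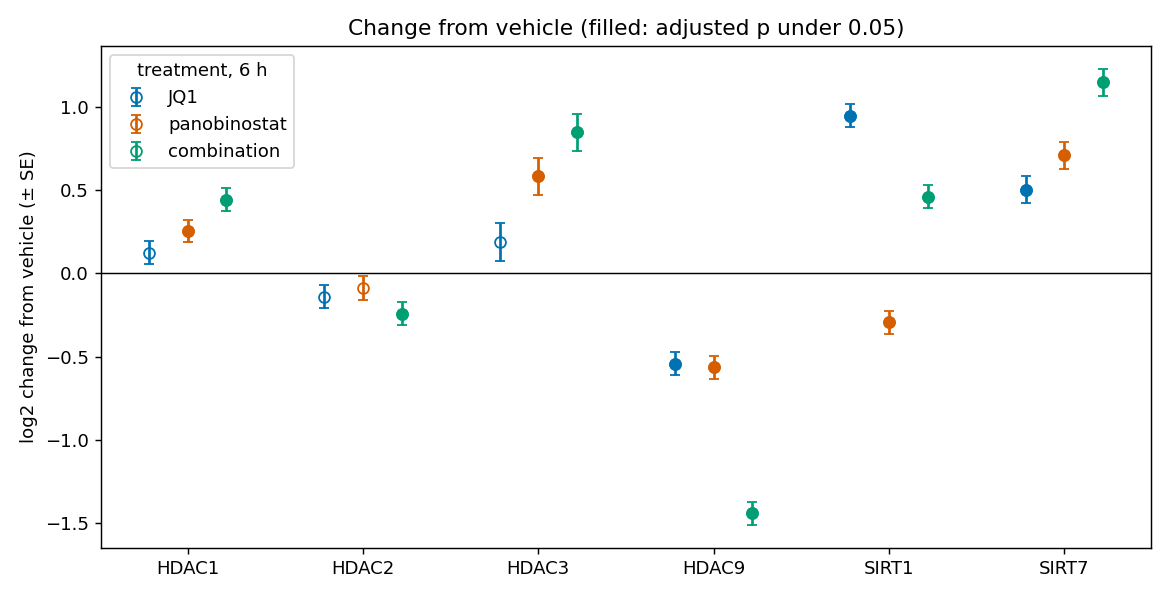
The plot gives the log2 change from vehicle with its SE for the 6 genes (horizontal axis) under JQ1, panobinostat and the combination; filled points passed an adjusted p of 0.05. HDAC9 lies below 0 and SIRT7 above 0 under all 3 treatments, and SIRT1 is at 0.95 with JQ1 and -0.29 with panobinostat.

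The compounds were also compared with each other and with the combination. When panobinostat was added to JQ1, 5 of the 6 genes were called, where 25.6% of all genes were. HDAC1 (0.32 ± 0.07, adjusted p = 0.00434), HDAC3 and SIRT7 rose and HDAC9 and SIRT1 fell. When JQ1 was added to panobinostat, 3 of 6 were called, where 14.7% of all genes were: SIRT1 and SIRT7 rose and HDAC9 fell. Between panobinostat and JQ1 directly, 2 of 6 were called, where 23.3% of all genes were, SIRT1 lower with panobinostat and HDAC3 higher (0.40 ± 0.11, adjusted p = 0.0248). The HDAC3 call ended without JQ1 replicate 2 (0.375), JQ1 replicate 3 (0.384), panobinostat replicate 2 (0.368) or panobinostat replicate 3 (0.327), after median centring (0.336), and over all clusters (adjusted p = 0.0655). These comparisons share arrays.

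The interaction asks whether the combination departs from the sum of both single changes on the log2 scale. For HDAC9 the single changes sum to -1.11, and the combination was at -1.44, an interaction of -0.33 ± 0.10 with a 95% interval of -0.55 to -0.12 (unadjusted p = 0.00518, limma's adjusted p = 0.146). For SIRT1 the sum was 0.65 and the combination 0.46, an interaction of -0.19 ± 0.10 (95% interval -0.40 to 0.02, adjusted p = 0.42). For SIRT7 the sum of 1.21 and the combination at 1.15 left -0.06 ± 0.12 (95% interval -0.32 to 0.19). For HDAC3 the sum was 0.77 and the interaction 0.08 ± 0.16 (95% interval -0.27 to 0.43). HDAC1 (0.06 ± 0.10, 95% interval -0.14 to 0.27) and HDAC2 (-0.01 ± 0.10, 95% interval -0.23 to 0.20) also had intervals that span 0. With limma 0 of 6 were called and 1 had an unadjusted p under 0.05, where 0.759% of all genes were called, and 0 of 6 were called in any other setting tried.

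**Figure D3:**
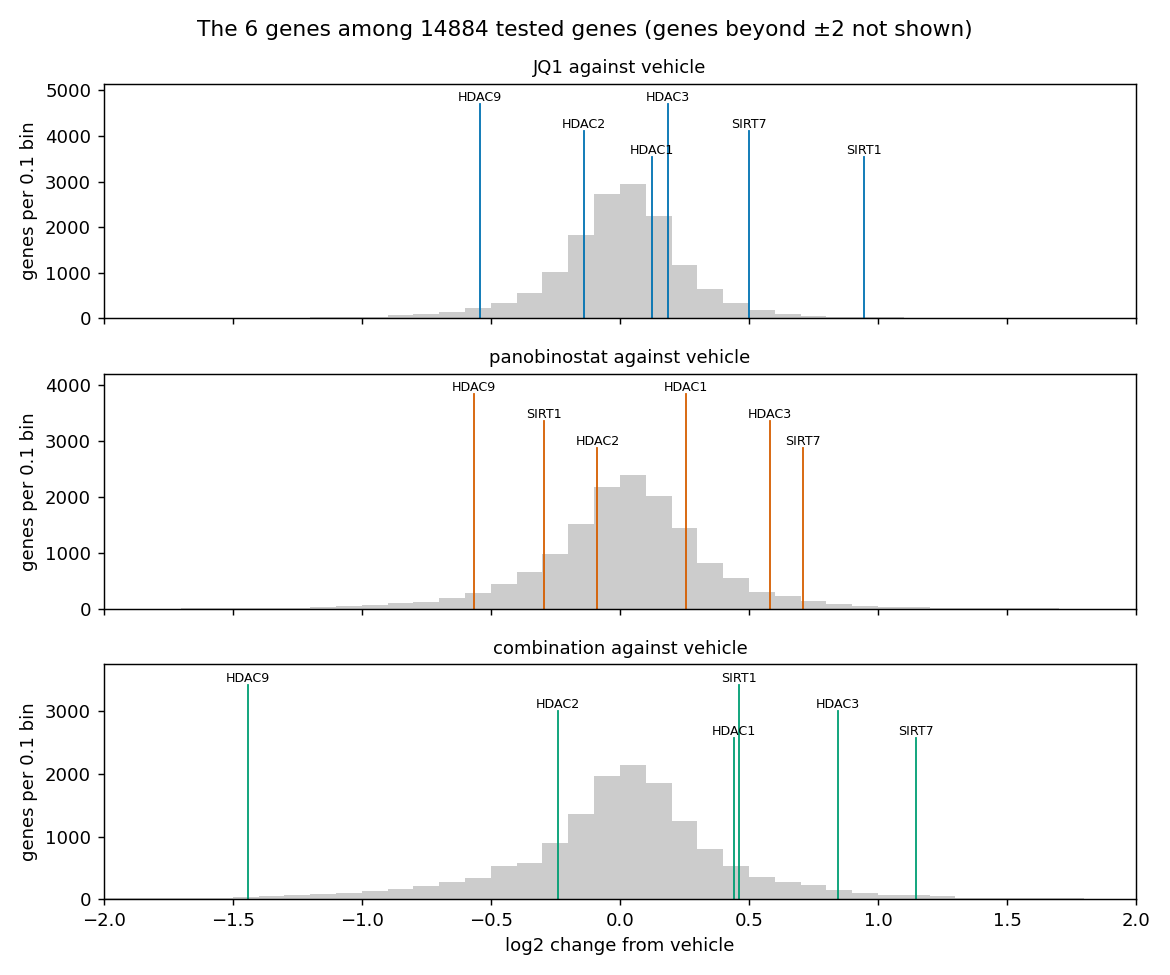
Grey bars count genes per bin of 0.1 in log2 change from vehicle (horizontal axis) for each treatment, and vertical lines mark the 6 genes; line heights serve only to separate the names. With JQ1 99.5% of genes had a lower change than SIRT1, and with the combination 98.7% of genes had a lower change than SIRT7 and 1.05% a lower change than HDAC9.

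The 12 other HDAC and sirtuin genes were listed for comparison. With the combination 9 of these 12 were called, 5 higher and 4 lower, with a median change of 0.18, where 37.7% of all genes were called (18.2% higher and 19.5% lower, median 0.02). SIRT4, a mitochondrial sirtuin, rose by 0.61 ± 0.13 (adjusted p = 0.00244), and SIRT2, a mainly cytoplasmic tubulin deacetylase, by 0.50 ± 0.10 (adjusted p = 0.00199). HDAC8, the fourth class I enzyme, fell by 0.51 ± 0.06 (adjusted p = 3.74e-05), and HDAC7, a class IIa enzyme, by 0.47 ± 0.08 (adjusted p = 0.000479). HDAC5, class IIa, was higher (0.33 ± 0.08, adjusted p = 0.00564), as was SIRT3, the main mitochondrial deacetylase (0.32 ± 0.07, adjusted p = 0.00498). The call of HDAC6, the tubulin deacetylase (0.32 ± 0.11), ended without vehicle replicate 2 (0.301), vehicle replicate 3 (0.24), combination replicate 2 (0.299) or combination replicate 3 (0.239). That of SIRT5, a desuccinylase (-0.41 ± 0.11), ended without vehicle replicate 1 (-0.343) or combination replicate 1 (-0.309). That of SIRT6, a chromatin-bound sirtuin (-0.23 ± 0.08), ended without any 1 of 5 arrays: vehicle replicate 1 (-0.174), vehicle replicate 3 (-0.235), JQ1 replicate 1 (-0.228), combination replicate 1 (-0.179) or combination replicate 3 (-0.227). Array centring also ended the calls of HDAC6 (0.285) and SIRT6 (-0.264), as did testing over all clusters and fitting only the compared arrays. HDAC4 (-0.06), HDAC10 (0.16) and HDAC11 (0.20) were not called.

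By class, the combination raised HDAC1 and HDAC3 and lowered HDAC2 and HDAC8 among the 4 class I genes. Of 4 class IIa genes 1 rose (HDAC5) and 2 fell (HDAC7 and HDAC9). All 7 sirtuins were called, 5 higher and 2 lower. Over all 18 genes, 9 were higher and 6 lower with the combination, with a median of 0.26. Of these calls, those of HDAC2, HDAC6, SIRT5 and SIRT6 ended in 6, 8, 2 and 9 of the 20 other settings. The same shares of all genes, 18.2% higher and 19.5% lower, are the background for these class counts. With JQ1 alone 2 of the 12 others were called (HDAC6 higher, HDAC8 lower), where 17.6% of all genes were. With panobinostat alone 3 of the 12 were called (HDAC5 and SIRT3 higher, HDAC7 lower), where 29.3% of all genes were. Both counts are near the background. Of these, HDAC6 with JQ1 lost its call without any 1 of 8 of the 12 arrays (values 0.274 to 0.365): vehicle replicates 2 and 3, all JQ1 replicates, panobinostat replicates 2 and 3, and combination replicate 2. Array centring ended the JQ1 calls of HDAC6 (0.362, adjusted p = 0.0746) and HDAC8 (-0.265, adjusted p = 0.0567), as did fitting only the compared arrays (adjusted p = 0.0623 and 0.0505), and testing over all clusters ended that of HDAC6 (adjusted p = 0.107). HDAC5 with panobinostat lost it without vehicle replicate 2 (0.224) or panobinostat replicate 3 (0.256), and SIRT3 without vehicle replicate 3 (0.193), panobinostat replicate 2 (0.198) or panobinostat replicate 3 (0.25); array centring ended both (0.236 and 0.194), as did testing over all clusters and fitting only the compared arrays. SIRT1 was the largest change with JQ1, SIRT7 with panobinostat and HDAC9 with the combination among the 18.

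**Figure D4:**
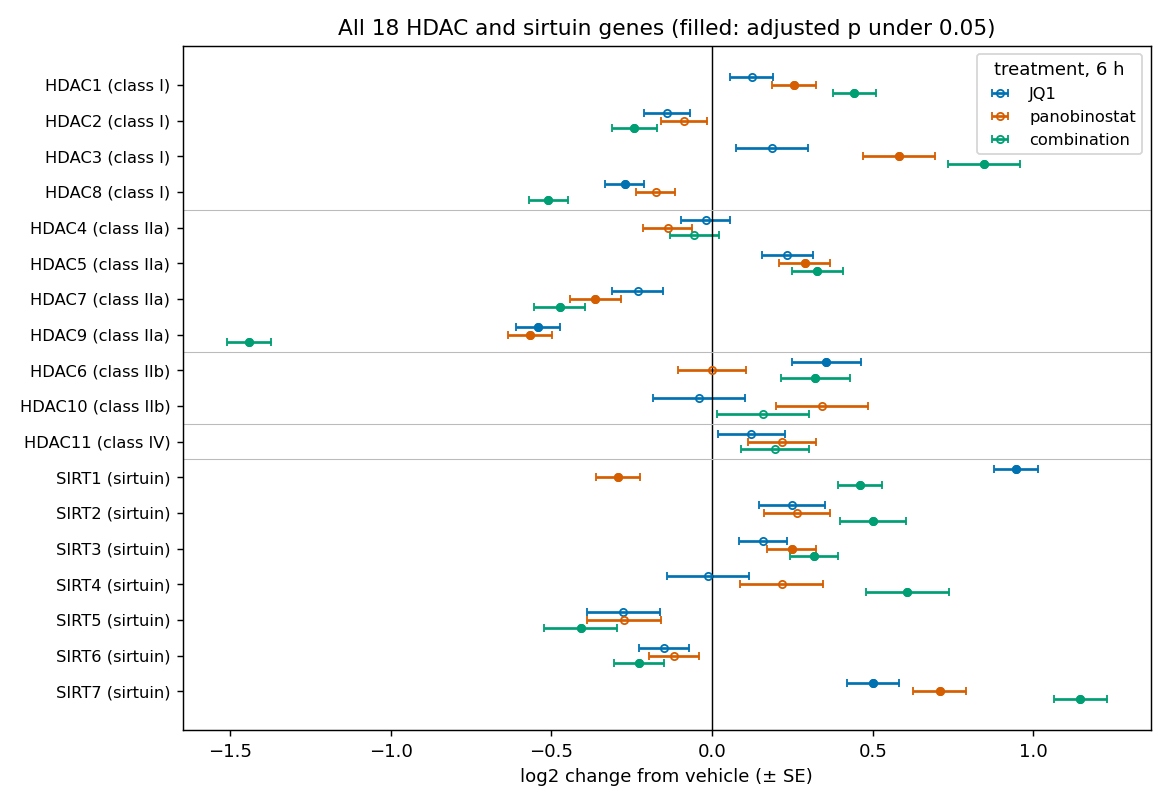
The log2 change from vehicle with its SE is shown for all 18 measured HDAC and sirtuin genes, grouped by enzyme class, under the 3 treatments; filled points passed an adjusted p of 0.05. Class I and class IIa genes lie on both sides of 0 with the combination, and 5 of 7 sirtuins lie above it.

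Genes that act with the deacetylases gave mixed counts. Of 42 listed partners of class I HDACs in corepressor complexes, 26 were measured. With the combination 8 of these were higher and 7 lower (median 0.04). Of all genes, 18.2% were higher and 19.5% lower (median 0.02). TBL1XR1, a subunit of the corepressor complexes that hold HDAC3, fell by 2.13 ± 0.08 (adjusted p = 7.22e-09), and it was also lower with JQ1 (-1.30 ± 0.08) and panobinostat (-0.94 ± 0.08). SIN3A, the scaffold of the SIN3 complex, rose by 1.09 ± 0.08 (adjusted p = 6.1e-07). PHF21A, a CoREST complex subunit, fell by 0.93 ± 0.07 (adjusted p = 1.75e-06).

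A list of acetyltransferases, which oppose the deacetylases, and of nuclear receptor coactivators had 11 measured genes. Of these, 7 were lower and 3 higher with the combination (median -0.35). With panobinostat 8 were lower and 2 higher (median -0.68). Of all genes, 14.8% were lower and 14.5% higher with panobinostat (2202 and 2161 genes). These numbers were 2310 and 1441 after median centring and 2272 and 2415 after quantile normalization. NCOA2, a nuclear receptor coactivator, fell by 1.49 ± 0.08 with the combination (adjusted p = 9.25e-08), CREBBP, the acetyltransferase CBP, by 1.07 ± 0.07 (adjusted p = 2.32e-07), and KAT5, the acetyltransferase TIP60, by 0.86 ± 0.16 (adjusted p = 0.000991). Of 14 partners and kinases of class IIa HDACs, 7 were higher and 3 lower with the combination (median 0.25). SIK2, a kinase that phosphorylates class IIa HDACs, rose by 1.18 ± 0.09 (adjusted p = 1.3e-06), BCL6, a repressor that recruits them, by 0.88 ± 0.12 (adjusted p = 0.000107), and PRKD2, another of their kinases, by 0.77 ± 0.09 (adjusted p = 2.01e-05). Of 13 genes of NAD supply and use and of sirtuin regulation, 1 was higher and 3 were lower (median -0.07). NADSYN1, the NAD synthetase, rose by 0.99 ± 0.09 (adjusted p = 4.91e-06), whereas PARP2, an NAD-consuming polymerase, fell by 1.35 ± 0.15 (adjusted p = 2.2e-05) and QPRT, an enzyme of NAD synthesis, by 0.52 ± 0.10 (adjusted p = 0.00176). The shares of all genes higher and lower with the combination, given above, are the background for the counts with the combination.

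The protein-coding genes whose log2 values followed each of the 6 genes most closely over the 12 arrays were found by Pearson correlation among 11915 genes, as a description. For HDAC1 they were AZIN1, the antizyme inhibitor (r = 0.986), and RRAGC, a Rag GTPase (r = 0.980). For HDAC3 they were NTAQ1, an N-terminal glutamine amidase (r = 0.987), and POLR2G, an RNA polymerase II subunit (r = 0.984). HDAC2 had TRIP11, a Golgi protein (r = 0.962), and ZFP37, a zinc finger protein (r = 0.954). HDAC9 had CPNE8, a copine (r = 0.995), and RAP1GAP2, a Rap GTPase-activating protein (r = 0.992). SIRT1 had ELF1, an ETS transcription factor (r = 0.986), and ZNF646, a zinc finger protein (r = 0.981), and ELF1 shared its directions, at 0.98 with JQ1 and -0.44 with panobinostat. SIRT7 had TBCCD1, a centrosomal protein (r = 0.991), and IER2, an immediate early gene (r = 0.991). The points are arrays in 4 treatment groups, so treatment differences enter these values. After group means were subtracted, r for the same pairs ran from 0.27 (SIRT1 and ZNF646) to 0.94 (HDAC2 and ZFP37).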

How the data were processed

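Per the labels' protocols, biotin-labelled cRNA from total RNA of SK-N-BE(2) cells had been hybridised to Affymetrix Human Gene 2.0 ST arrays, 12 in all. The deposited values, 1 per cluster and array, were read as log2 intensities; their range is 1.39 to 14.1. The submitters' processing notes name MAS5 and affy without role or version. How background was corrected and arrays normalized, and which genome build was used, is not given in the sources used here. With no detection calls, brightness relative to background cannot be given, and precision is limited by 3 arrays a group. Each symbol was represented by its brightest cluster. All 12 arrays were fitted in R 4.3.3 with limma 3.58.1 (1 coefficient per group, 8 residual and 3.46 prior degrees of freedom) without renormalization, with Benjamini-Hochberg adjustment over 14884 genes; the fit was tested on simulated data. The 6 genes, the comparison lists and the settings were chosen with earlier results of these data known. Named beside the 6 genes were the 12 relatives, up to 3 called genes per list with the largest combination change, and the 2 closest genes by correlation. 42 tests of the 6 genes were made (7 comparisons). Same-numbered arrays did not pair across all groups: 4 of 18 correlations of their deviations passed 0.1. Those between vehicle and JQ1 (0.201, 0.179 and 0.0956) and between panobinostat and combination (0.236, 0.0831 and 0.191) were positive. Different-numbered arrays in these same comparisons gave -0.205 to 0.0347. Between arrays without and with panobinostat, deviations correlated at -0.693 to 0.486. The main fit treats arrays as independent and does not model this.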

Additional observations from a re-analysis of the deposited data

How the results depend on the processing

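The 20 other settings (array centring, quantile normalization, omission of the dimmest 40% of genes, a replicate block, the mean of a symbol's clusters, all clusters, only the arrays compared, a trended robust fit, and each of 12 arrays left out) kept the call and direction of HDAC9, SIRT1 and SIRT7 against vehicle in all 3 comparisons, those of HDAC3 with panobinostat and the combination, and that of HDAC1 with the combination. The number of the 6 genes called between panobinostat and JQ1 was 1 after array centring, with the replicate block and over all clusters, 4 after quantile normalization, and 1 to 3 with 1 array left out. For panobinostat against JQ1, HDAC2 turned to -0.00642 after array centring, and HDAC9 to 0.00942 after quantile normalization and to between -0.0611 and 0.00234 with 1 array left out. With 1 array left out, interactions near 0 ran from -0.0624 to 0.0276 (HDAC2), -0.0431 to 0.162 (HDAC3) and -0.137 to 0.0223 (SIRT7). The HDAC1 difference between the combination and panobinostat was called without dim genes (0.188, adjusted p = 0.0379) and with the trended robust fit (adjusted p = 0.0479). Quantile normalization made HDAC1 (0.186) and SIRT7 (0.241) differ between panobinostat and JQ1, and omission of dim genes did so for SIRT7 (0.207). Over all genes, interaction calls numbered 113, but 41 after centring, 313 after quantile normalization, 259 without dim genes, 48 with the replicate block, 324 with the trended robust fit and 28 to 86 with 1 array left out. Combination against panobinostat gave 2184 calls and 1325 when only their arrays were fitted. The replicate numbers do not pair the arrays across all groups (0 of 12 correlated best with their own number). Same-numbered arrays did correlate positively between vehicle and JQ1 and between panobinostat and combination. The block ended the HDAC3 call between panobinostat and JQ1 (0.396, adjusted p = 0.0545) and no other call of the 6 genes. Among the relatives it ended those of HDAC6 (0.355 with JQ1, 0.321 with the combination) and SIRT6 (-0.228, combination). The causes were not tested.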
